A study of Schizosaccharomyces pombe
Saccharomyces cerevisiae with 16 samples.

Results

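Total RNA was measured in Saccharomyces cerevisiae after rapid removal of Med14, a subunit of the Mediator complex. The data are 4 of the 16 libraries of the study, chosen by their labels: 2 total RNA libraries of the Med14 degron strain treated with auxin and 2 of the same strain treated with DMSO, the solvent. The deposited table lists 6805 genes, and 5625 of them had enough counts to be tested. The other 12 libraries hold total RNA of a Med17 degron strain and newly synthesized RNA of both strains, and they are used below only for contrast.

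Every culture of the Med14 comparison was strain GZY219, a MATalpha strain with the auxotrophic alleles ade2Δ, his3Δ200, leu2Δ0, lys2Δ0, met15Δ0, trp1Δ63 and ura3Δ0. It expresses the rice F-box protein OsTIR1 from the GPD1 promoter, and its own MED14 gene carries the fusion MED14-3V5-IAA7, so the DMSO cultures had the tag and the F-box protein too. Cultures in rich medium received 500 µM auxin or DMSO for 30 min. The RNA of all of them was then labelled with 5 mM 4-thiouracil (4tU), a uracil analogue, for 6 min. The strain is 1 clone as far as the labels say, and the replicates are described as biological. No untagged strain treated with auxin is among the samples, so the effect of auxin itself cannot be told apart from that of the loss of Med14. Before RNA extraction, S. pombe cells (fission yeast) were added at a defined ratio.

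Mediator is a large coactivator that bridges gene-specific transcription factors and RNA polymerase II at promoters. Med14, named RGR1 in the deposited table, is the backbone that joins the head, middle and tail modules of the complex, and Med17, named SRB4, is the scaffold of the head. The auxin-inducible degron lets OsTIR1 mark the tagged protein for the proteasome, so that the protein is lost while its gene and mRNA remain. Total RNA holds both molecules made before the treatment and those made during it, so its level follows transcription only as fast as old molecules decay.

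The 4 libraries held 3304205 to 5290237 counts. The authors' normalized counts equal the raw counts times 1 constant per library, and the constants were 1.07 and 1.07 with DMSO and 1.12 and 1.39 with auxin. On that scale the libraries summed to 5623322 ± 49518 (SD, n = 2) with DMSO and 4443924 ± 208553 (SD, n = 2) with auxin, which is 79.0% of the DMSO level. All levels below are such normalized counts, and all changes are log2 fold changes of auxin over DMSO from edgeR's quasi-likelihood test, with p-values adjusted by the Benjamini-Hochberg method over all tested genes and a threshold of 0.05. The sources used here do not say whether the constants rest on the added S. pombe cells. Without knowing that, fewer cells and less RNA per cell cannot be told apart on this scale. The alpha mating type was seen in the RNA: the alpha-specific receptor gene STE3 stood at 1363 and 1652 with DMSO, while the a-specific receptor gene YFL026W stood between 13.9 and 30.6 in the 4 libraries. Of the 7 deleted marker genes none had enough counts to be tested, and HIS3 stood at 1.07 or less in each library although the labels name a HIS3 marker beside OsTIR1.

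Most genes fell. Of the 5625 tested genes, 4225 (75.1%) were lower with auxin and 91 (1.62%) were higher, while 1309 did not pass the test. The median change was -0.76, so that the median gene kept 59.1% of its level, and the middle 50% of genes lay between -1.10 and -0.43. Changes were mostly moderate: 1720 of the lower genes fell by more than 1 on the log2 scale and 121 by more than 2. The median was -0.65 in the first pair of libraries and -0.85 in the second. Of the 4225 lower genes 4224 were lower in both pairs, but the same libraries gave the calls, so this is no independent check.

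The general fall rests on the authors' constants. With TMM scaling, which sets the bulk of genes to no change, the median moved to -0.06 and the calls to 1073 lower and 1054 higher genes (19.1% and 18.7% of 5628). With median-of-ratios scaling the median was -0.01, with 927 lower and 1185 higher genes (16.5% and 21.1%). The constants shift all genes of a library alike. For most lists and named genes whose sign turns or nears 0, the value with TMM is given beside the main one or in the last section. Of the lower genes 181 were called higher with TMM. All 91 higher genes remained higher, but TMM shifts the changes upward, so this does not test the rises.

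The mRNA of the degraded protein itself was largely kept. RGR1 stood at 488 and 566 with DMSO and at 472 and 459 with auxin. The groups did not overlap, but the change of -0.18 ± 0.12 (SE) did not pass the test (adjusted p = 0.179, edgeR), and with TMM it was 0.52 with an adjusted p of 0.00168. This mRNA does not measure the degraded protein, so it does not check the depletion.

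The mRNAs of Mediator subunits as a group fell about as far as the median gene. Of the 25 subunit genes, RGR1 included, 22 were lower and none was higher, with a median of -0.71, which was -0.02 with TMM. SRB4, the gene of the untouched head scaffold, went from 295 and 323 to 213 and 168, a change of -0.69 ± 0.17 (adjusted p = 0.00335, edgeR; 0.00 with TMM). The largest fall among them was that of YHR058C, a core subunit gene, from 157 and 173 to 64.0 and 58.4.

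The genes of RNA polymerase II subunits did not move together. Of 12 genes 9 were lower, with RPB8, the gene of a subunit shared by all 3 nuclear polymerases, at -0.81 (-0.12 with TMM). The genes of the catalytic subunits were the exceptions. RPO21, which encodes the largest subunit, rose from 4299 and 4616 to 5281 and 6188, a change of 0.36 ± 0.11 (adjusted p = 0.011, edgeR), and RPB2, the second largest, rose by 0.34. Both auxin libraries lay above both DMSO libraries for RPO21. That call is lost without DMSO replicate 1 (0.31, adjusted p = 0.082) or without auxin replicate 2 (0.24, adjusted p = 0.109), and neither subunit gene is called in those fits.

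General transcription factor and SAGA genes fell in 30 of 40 cases with a median of -0.62 (0.07 with TMM). The lowest, TAF13, a TFIID subunit gene, had few counts, at 69.5 and 40.7 with DMSO against 12.3 and 25.01 with auxin. Genes of RNA polymerase I and III subunits fell in 15 of 19 cases, with a median of -0.66 (0.03 with TMM) and RPC31 lowest at -1.37.

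The 12 largest falls among genes with a mean raw count of at least 50 that moved the same way in both pairs ranged from -3.41 to -2.45. They were also negative with TMM, between -2.71 and -1.75. YDR380W, the phenylpyruvate decarboxylase gene of the Ehrlich pathway (chromosome IV, 1234218 to 1236125, protein coding, sacCer3), stood at 394 and 466 with DMSO and at 57.2 and 20.8 with auxin, a change of -3.41 ± 0.37 (adjusted p = 2.1e-05, edgeR). YHR137W, which encodes aromatic aminotransferase II of the same pathway, went from 635 and 687 to 141 and 61.1. Both genes of amino acid breakdown were low in both auxin libraries and lowest in auxin replicate 2.

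Genes of cell separation made up another group of these large falls. YHR143W, a daughter-specific glucanase-like gene, went from 770 and 1037 to 214 and 95.9. YNL327W, an endoglucanase gene needed for separation after cytokinesis, went from 1204 and 1718 to 356 and 175, and YGL028C, a glucanase-like cell wall gene, from 673 and 966 to 200 and 79.2. In each the auxin libraries lay below the DMSO libraries, and auxin replicate 2 lay below auxin replicate 1 by more than the DMSO libraries lay apart on a log scale.

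CLB1, a mitotic B-type cyclin gene, fell from 427 and 449 to 94.3 and 44.5. STE3, the receptor for a-factor, fell from 1363 and 1652 to 359 and 183. YER130C, the gene of a transcription factor that acts on IME1, fell from 302 and 277 to 49.4 and 54.2, with close replicates. The others were YDR281C (-3.40), a phosphate-regulated gene of unknown function, YCR018C (-3.06), a gene of pre-rRNA processing, WSC4 (-2.65), an endoplasmic reticulum membrane protein gene, and YJL139C (-2.50), a Golgi mannosyltransferase gene.

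**Figure D1:**
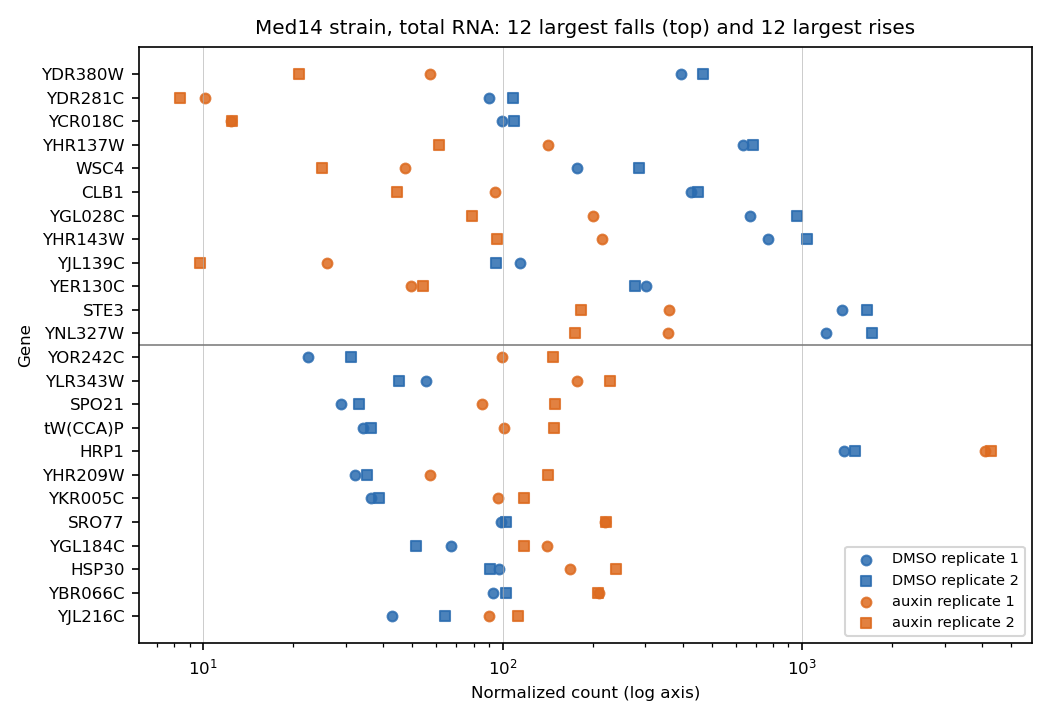
Normalized counts (log axis) in the 4 Med14 total RNA libraries for the 12 largest falls (above the line) and the 12 largest rises (below it); blue marks DMSO, orange auxin, circles replicate 1 and squares replicate 2. The DMSO and auxin libraries do not overlap for any of the 24 genes, which their choice as the most extreme calls makes likely. For most falling genes auxin replicate 2 lies below auxin replicate 1.

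Gene lists showed which functions fell more than the median gene. Their counts stand beside a background of 75.1% lower and 1.62% higher genes, and no list was tested as a set. The list of M/G1 and daughter cell genes had the lowest median, -1.91 (-1.21 with TMM), and all 8 of its genes were lower. YLR286C, the endochitinase of cell separation and its most counted member, went from 2465 and 3359 to 1457 and 1271. SIC1, an inhibitor of B-type cyclin kinase, fell least in this list, by 1.08.

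Histone genes followed, with a median of -1.61 (-0.92 with TMM) and 10 of 10 genes lower. YNL031C, a histone H3 gene, went from 3098 and 3338 to 787 and 397, a change of -2.44 ± 0.24 (adjusted p = 1.45e-05, edgeR). HTZ1, which encodes the H2A variant H2A.Z and is expressed outside S phase too, went from 335 and 391 to 166 and 164, the smallest fall of the list at -1.14. Copies of histones H3 and H4 are near identical in sequence, so counts may be split between them.

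Other cell cycle genes also fell beyond the median. Of 17 G1/S genes 16 were lower, with a median of -1.07 (-0.38 with TMM). YPL256C, a G1 cyclin gene, fell by 1.60, and RNR1, the large subunit of ribonucleotide reductase, went from 2914 and 3389 to 1378 and 1345. All 9 G2/M genes were lower with a median of -1.14 (-0.45 with TMM).

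Nutrient genes were spread more widely. All 12 phosphate genes fell, with a median of -1.20 (-0.50 with TMM). PHO84, the high-affinity phosphate transporter, went from 6993 and 7586 to 1797 and 1082, a change of -2.34 ± 0.20 (adjusted p = 9.4e-06, edgeR), and YHR136C, an inhibitor of low-affinity phosphate transport, fell by 2.42. Of 9 tested genes of nitrogen and amino acid catabolism 7 were lower, with a median of -1.36 (-0.67 with TMM). CAR2, the ornithine aminotransferase gene, went from 1274 and 1279 to 525 and 400.

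Of 5 iron uptake genes 3 were lower, with a median of -0.95 (-0.26 with TMM), among them YER145C, the iron permease gene, at -1.52. Hexose transport genes did not fall more than the median gene: 5 of 10 tested were lower, with a median of -0.71 (-0.03 with TMM) against -0.76 for all genes. The low-affinity transporter gene YDR345C went from 3598 and 3536 to 1390 and 1274. YDR343C, a high-affinity glucose transporter gene, was the exception: it rose from 5.35 and 6.43 to 22.4 and 26.4, which is few counts, and it is nearly identical to another transporter gene, so its counts are uncertain.

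Membrane and surface genes were also among the lower lists. Drug efflux genes fell in 8 of 10 cases with a median of -1.28 (-0.59 with TMM). PDR5, the main multidrug ABC transporter, went from 7430 and 8042 to 2848 and 2148, and YDR011W, another ABC transporter gene, fell by 1.82. Ergosterol genes fell in 19 of 20 cases with a median of -1.16 (-0.47 with TMM), and ERG3, the sterol C-5 desaturase gene, went from 1233 and 1394 to 416 and 311.

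Of 18 cell wall genes 15 were lower with a median of -0.95 (-0.25 with TMM). GAS1, a glucanosyltransferase gene, fell by 1.89, whereas YLR110C, an abundant mannoprotein gene, fell by 0.69 and stood at 0.00 with TMM. MUC1, the flocculin gene of invasive growth, rose from 19.3 and 18.2 to 47.1 and 62.5, few counts.

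All 12 mating genes fell, with a median of -1.19 (-0.50 with TMM). The most counted, MF(ALPHA)1, which encodes the alpha-factor pheromone, went from 4239 and 4784 to 1313 and 878. Genes of gene-specific transcription factors fell in 38 of 43 cases with a median of -0.95 (-0.26 with TMM). HAP1, the haem-responsive activator, fell by 2.07, from 1306 and 1586 to 403 and 285, and GCN4, the activator of amino acid synthesis, from 3256 and 3691 to 1702 and 1502.

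**Figure D2:**
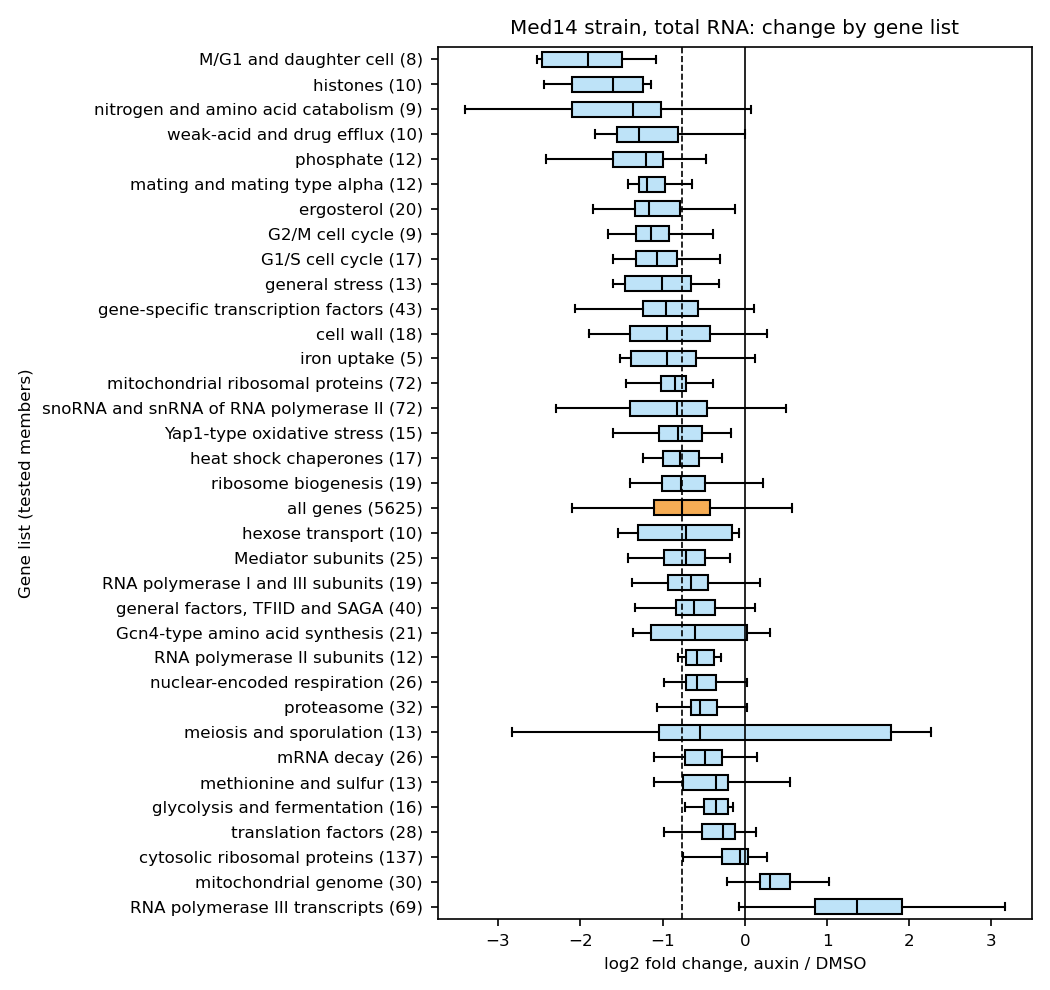
Log2 fold changes (auxin over DMSO) of the tested members of each gene list, as boxes of the middle 50% with the median as a line and whiskers to the furthest gene within 1.5 box lengths (genes beyond them are not drawn); the number of tested members stands in brackets. The orange box and the dashed line show all 5625 tested genes; cell separation and histone genes lie to its left, and ribosomal protein, mitochondrial genome and RNA polymerase III genes to its right.

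All 13 general stress genes were lower, with a median of -1.01 (-0.32 with TMM), below that of all genes. YGR248W, a phosphogluconolactonase gene, was lowest at -1.60, on few counts. Of 17 chaperone genes 14 were lower with a median of -0.79 (-0.09 with TMM). SSA2, a cytosolic Hsp70 gene, went from 33163 and 32771 to 20958 and 18858, near 0 with TMM (-0.04). YBR072W, a small heat shock protein gene, rose from 651 and 501 to 1010 and 944, a change of 0.76 ± 0.17 (adjusted p = 0.00156, edgeR).

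Of 15 Yap1-type oxidative stress genes 10 were lower, with a median of -0.81 (-0.12 with TMM), and ATR1, a drug and boron exporter gene, went from 318 and 248 to 132 and 48.6. Their replicates differed widely: 14 of the 15 were lower without auxin replicate 1 and 9 without auxin replicate 2.

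Mitochondrial ribosomal protein genes fell evenly: 71 of 72 were lower, with a median of -0.85 (-0.16 with TMM) and quartiles of -1.02 and -0.71. YNR037C, a small subunit protein gene, was lowest at -1.44. Nuclear genes of respiration fell in 19 of 26 cases with a median of -0.58 (0.11 with TMM). CYC1, the iso-1-cytochrome c gene, stood apart from them at -1.95, from 462 and 458 to 141 and 94.5.

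Ribosome biogenesis genes fell in 17 of 19 cases with a median of -0.77 (-0.08 with TMM). NSR1, a nucleolar RNA-binding protein gene, fell by 1.40. YMR229C, a long pre-rRNA processing factor gene, stood at 4776 and 5500 with DMSO and at 5332 and 6616 with auxin, groups that overlap.

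Proteasome genes fell in 26 of 32 cases with a median of -0.55 (0.14 with TMM), and PUP2, a core subunit gene, was lowest at -1.06. RPN1, the most counted, stood at 3147 and 3135 with DMSO and at 2927 and 3011 with auxin, a change of -0.08 that did not pass the test (0.61 with TMM). Genes of mRNA decay fell in 18 of 26 cases with a median of -0.48 (0.21 with TMM). Among them YGL094C, the catalytic subunit of the Pan2-Pan3 poly(A) nuclease, fell by 1.11, while XRN1, the main cytoplasmic 5' exonuclease, stood at 4274 and 4769 with DMSO and 4263 and 4498 with auxin (-0.05, not called; 0.65 with TMM).

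Amino acid synthesis genes of the Gcn4 type were split. Of 21 genes 13 were lower and 2 higher, with a median of -0.61 (0.09 with TMM). YLR355C, the acetohydroxyacid reductoisomerase gene, went from 8327 and 8725 to 3505 and 3120, while YJR109C, the large subunit of carbamoyl phosphate synthetase, went from 1907 and 1684 to 2024 and 2430 (0.31, adjusted p = 0.0351, edgeR). The YJR109C call is lost without auxin replicate 2 (0.17) or without DMSO replicate 2 (0.22).

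Of 13 methionine and sulfur genes 6 were lower and 1 higher, with a median of -0.35 (0.33 with TMM). CYS4, which makes cystathionine, fell by 1.11. YFR030W, the alpha subunit of sulfite reductase, rose from 944 and 956 to 1436 and 1355, a change of 0.55 ± 0.13 (adjusted p = 0.00174, edgeR).

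With the authors' constants, groups of abundant RNAs changed less than the median gene. Of the 137 cytosolic ribosomal protein genes 34 were lower, none was higher and 103 did not pass the test, with a median of -0.05. With TMM 6 were lower and 107 higher, at a median of 0.64, against 18.7% higher of all genes. With the authors' constants but without auxin replicate 1 the list median was 0.03, in place of -0.05. RPL22B, the less abundant copy of a duplicated gene, was lowest of the list, from 338 and 367 to 129 and 87.5. Most of these genes are duplicated, so reads may be split between copies.

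Translation factor genes fell in 12 of 28 cases with a median of -0.26 (0.43 with TMM, with 17 higher). YEF3, elongation factor 3, stood at 61613 and 63513 with DMSO and at 57185 and 64352 with auxin, groups that overlap. HYP2, the gene of the factor eIF5A, fell by 0.98, from 6594 and 6939 to 3511 and 3335.

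Glycolysis and fermentation genes fell in 11 of 16 cases but only with a median of -0.35 (0.35 with TMM, with 9 higher). TDH3, the main glyceraldehyde-3-phosphate dehydrogenase gene, stood at 119578 and 114257 with DMSO and at 100939 and 111393 with auxin, a change of -0.14 that did not pass the test (0.55 with TMM). YLR044C, the major pyruvate decarboxylase gene, fell from 104727 and 92684 to 79394 and 85698 (-0.26, adjusted p = 0.0399, edgeR; 0.43 with TMM). That call is lost without auxin replicate 1 (-0.20), without DMSO replicate 1 (-0.17) and without DMSO replicate 2 (-0.34).

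Per kilobase of transcript, the 10 most abundant RNAs with DMSO were SCR1, TDH3, SNR17A, snR37, FBA1, snR30, YLR110C, LSR1, RPL41A and YLR044C, at 58336 to 527151 normalized counts per kb. Of these, YLR110C and YLR044C were called lower and the other 8 were not called. SCR1, the RNA component of the particle that targets secretory proteins and a product of RNA polymerase III, stood at 334847 and 215498 with DMSO and at 256788 and 314209 with auxin, overlapping groups (0.05, not called; 0.74 with TMM). LSR1, the U2 spliceosomal RNA, stood at 70201 and 73763 with DMSO and at 64881 and 75944 with auxin.

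Of the 72 tested snoRNAs and snRNAs that RNA polymerase II makes, 29 were lower and none was higher, with a median of -0.82 (-0.11 with TMM). Several of them varied widely between the DMSO libraries: SNR17A stood at 47499 and 24386, and snR31 at 1262 and 435. The median of the list was -1.03 in the first pair of libraries and -0.50 in the second.

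The 91 higher genes, 53 when auxin replicate 2 is left out, were a mixed group with many low-count genes. Of them 63 were protein coding and 28 were tRNA genes, 4 of the 91 lay in the mitochondrial genome, and 46 had a mean raw count under 50. Among the 45 with higher counts, HRP1 was the most abundant of the 12 largest rises. HRP1, a subunit of cleavage factor I for mRNA 3' end formation (chromosome XV, 87844 to 89448, protein coding), stood at 1377 and 1500 with DMSO and at 4092 and 4292 with auxin, a change of 1.54 ± 0.15 (adjusted p = 1.28e-05, edgeR). The replicates lay close together in each group. On the authors' constants its newly synthesized RNA moved the other way, by -0.49, a smaller fall than the median of -1.86 over all genes in new RNA.

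Sporulation genes, which are normally silent in growing haploid cells, supplied 3 of the 4 largest of these rises. YOR242C, a spore wall gene, went from 22.5 and 31.1 to 99.9 and 147, and YLR343W, a glucanosyltransferase gene of spore wall assembly, from 55.6 and 45.0 to 177 and 229. SPO21, a gene of the meiotic spindle pole body, went from 28.9 and 33.2 to 85.3 and 150. The wider list of meiosis and sporulation genes was not uniform: of 22 genes 13 were tested, 4 of them lower and 4 higher. NDJ1, a meiotic telomere protein gene, fell from 83.4 and 103 to 13.5 and 12.5, while YDR523C, a kinase gene of spore wall formation, rose from 8.56 and 16.1 to 48.3 and 72.3. The list median was -0.54, and 1.30 with TMM over 14 tested genes. Counts on the sense strand cannot be separated from antisense or read-through RNA here, since no source used here states the strand setting of the counting.

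The remaining large rises were in unrelated genes at low levels. SRO77, a gene of exocytosis, went from 98.4 and 103 to 220 and 222. HSP30, a plasma membrane stress protein gene, went from 97.3 and 91.1 to 168 and 239, and YBR066C, a glucose-dependent repressor gene, from 93.1 and 103 to 210 and 208. YGL184C, a cystathionine beta-lyase gene, and YJL216C, an isomaltase gene, rose by 1.13 and 0.91. YHR209W, a methyltransferase gene, rose by 1.52 with unequal auxin replicates, 57.2 and 142, and its call is lost without auxin replicate 2 (0.76). YKR005C, of unknown function, rose by 1.51.

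Some RNA polymerase III transcripts rose, mostly on a few counts. Of 261 listed 69 were tested, and 27 of them were higher, none was lower and 42 were not called, with a median of 1.36. Counts of the tRNA genes were low: tW(CCA)P, among the most counted of them, stood at 34.2 and 36.4 with DMSO and at 101 and 149 with auxin. The cause of the low counts was not tested. The 69 passed the filter partly through the libraries in which they were high, so their median is not that of the class. With no filter 40 of 261 were higher, at a median of 1.20, and with a mean count of at least 50 it was 2 of 5, at a median of 0.72. The number higher ranged from 18 to 34 when 1 library was left out. The mitochondrial genome, which has its own RNA polymerase, had 4 of 30 tested genes higher, none lower and a median of 0.31. Without auxin replicate 2 none of them was called. Q0255, a maturase-like gene, went from 272 and 228 to 318 and 399. The summed mitochondrial counts were 118% of the DMSO level, against 76.5% for protein coding genes.

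Gene properties sorted the falls only loosely. Protein coding genes were split into 5 groups of equal size by mean level, taken over the total RNA libraries of both strains, those with auxin included. The median change went from -0.97 in the lowest group to -0.87, -0.79, -0.71 and -0.50 in the highest. A fall itself lowers this mean, so the grouping by level is not independent of the change. How much of the trend by level arises this way was not tested. By transcript length the medians were -0.82, -0.82, -0.77, -0.79 and -0.63 from short to long. At the median, genes of the highest group by level kept 70.8% and those of the lowest 50.9%.

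The newly synthesized RNA of the same strain and treatments, made from 4tU-labelled RNA of separate libraries, gave a larger fall. In a joint fit of all 16 libraries over 6057 genes its median change was -1.86, with 5711 genes (94.3%) lower and 30 (0.495%) higher. The test of the difference, total minus new, called 4820 genes (79.6%) with a smaller fall in total RNA and 1 gene (0.0165%) with a larger one, at a median of 1.05. The fit treated total and new RNA libraries as independent. The labels number the replicates of both kinds alike, and any pairing of total and new RNA from the same culture was not modelled. New and total RNA were scaled by separate constants, and with TMM within each kind the counts were 646 (10.6%) and 214 (3.51%). Across 5442 genes the 2 changes were related with r = 0.54 and a rank correlation of 0.52. These are genes and not replicates.

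The gap between total and new RNA was widest for ribosomal protein and glycolysis genes. Their medians in new RNA were -2.98 and -3.27 against -0.05 and -0.35 in total RNA. RPS15, a small subunit protein gene, stood at 10579 and 10045 with DMSO and at 9960 and 10273 with auxin in total RNA. In new RNA it went from 9358 and 10652 to 948 and 933, a difference of 3.38 ± 0.20 (adjusted p = 1.59e-09, edgeR). YLR044C and TDH1, a minor glyceraldehyde-3-phosphate dehydrogenase gene, had differences of 3.57 and 3.35. The largest was 4.07, for YGL089C, an alpha-factor gene, whose total RNA fell by 1.42 and whose new RNA fell by 5.49.

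For histone and cell separation genes both kinds of RNA fell far, by medians of -1.61 and -1.91 in total and -2.93 and -3.31 in new RNA. A small nucleolar RNA, SNR17B, had a difference of 3.87, and its near-identical copy SNR17A could share its reads. OYE3, an oxidoreductase gene, had a difference of 3.62 that rests on auxin replicate 1 of the total RNA and was -0.35 without it. The only gene called with a larger fall in total RNA was YLR162W, at 16.04 and 5455 with DMSO and 23.6 and 27.8 with auxin. Its fall of 6.74 rests on DMSO replicate 2 alone, and without that library the difference was -1.36 and was not called.

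**Figure D3:**
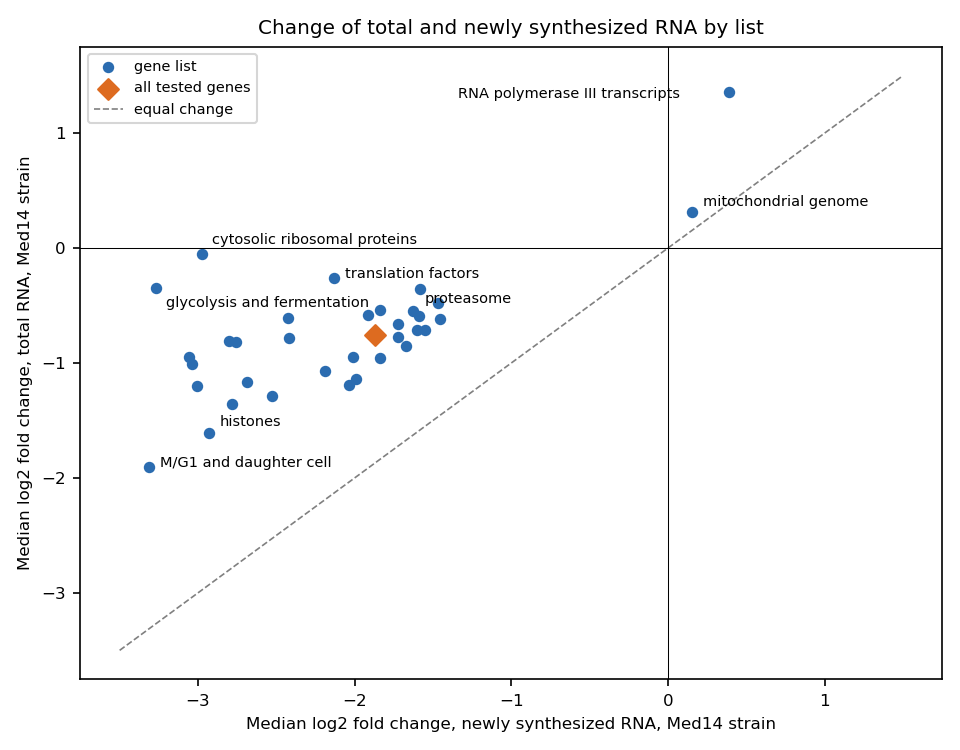
Median log2 fold change (auxin over DMSO) of each gene list in total RNA (vertical) against newly synthesized RNA (horizontal) of the Med14 strain, with all tested genes as a diamond and equal change as a dashed line. All lists lie above the line, and ribosomal protein and glycolysis genes lie furthest from it.

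The fall in total RNA did not follow the ratio of new to total RNA closely. That ratio was taken from the DMSO libraries of the Med17 strain, which share no library with the Med14 comparison. From the lowest to the highest of 5 equal groups by this ratio the median total RNA changes were -0.55, -0.85, -0.83, -0.79 and -0.78. In new RNA the medians were -2.30, -1.96, -1.80, -1.70 and -1.65, so the group with the lowest ratio had the smallest fall in total RNA and the largest in new RNA, and from the second group on both falls became smaller. Over 5442 genes the ratio had rank correlations of -0.11 with the total and 0.38 with the new RNA change.

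The strain labelled as carrying the degron on Med17, the head scaffold, had a deeper fall of total RNA under the same treatment. The labels conflict here: its source name and strain fields give Med17, while its genotype field repeats the MED14 fusion under another strain number, GZY269. The RNA does not settle which subunit was degraded, and each value given for the Med17 strain rests on the first 2 fields. In the Med17 strain 4914 genes (87.4%) were lower and 136 (2.42%) higher, with a median of -1.38. The difference between strains, Med14 minus Med17, called 2322 genes (41.3%) with a smaller fall or larger rise in the Med14 strain and 69 (1.23%) with the opposite, at a median of 0.54. Without Med14 auxin replicate 1 the first count was 1408, and without Med14 DMSO replicate 1 it was 1510. With TMM the counts were 337 (5.99%) and 473 (8.4%), so the direction of most differences rests on the constants. The strains are different clones, so strain and degraded subunit cannot be told apart. Across 5625 genes the changes of the 2 strains had r = 0.70 and a rank correlation of 0.67.

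Several lists differed between the strains by more than the median gene. For the Yap1-type oxidative stress list the medians were -0.81 in the Med14 and -2.71 in the Med17 strain, and all 15 genes had a smaller fall in the Med14 strain, or 9 of 15 with TMM and 11 of 15 without Med14 auxin replicate 1. For proteasome genes the medians were -0.55 and -1.48 and 32 of 32 differed, 10 of them with TMM. For mitochondrial ribosomal protein genes the medians were -0.85 and -1.89 and 66 of 72 differed, 16 of them with TMM. For methionine and sulfur genes they were -0.35 and -1.72 and 11 of 13 differed, 7 of them with TMM. For cytosolic ribosomal protein genes the medians were -0.05 and 0.00 and 4 of 137 differed, but with TMM 68 were lower and 1 higher in the difference, at a median of -0.57. For histone genes they were -1.61 and -1.78 and 1 of 10 differed, while with TMM 2 were lower in the difference, at a median of -0.59, and with median-of-ratios scaling 6 were. RNA polymerase III transcripts went the other way, with medians of 1.36 and 2.59, and 4 of 69 were called lower in the difference (6 of 95 with TMM). The 69 passed a filter over the libraries of both strains, partly through those in which they were high. Neither median, nor the gap between them, is therefore that of the class.

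HSP30 had the largest difference of the named genes, 4.02 ± 0.27 (adjusted p = 2.8e-05, edgeR). It rose in the Med14 strain, and in the Med17 strain it went from 334 and 381 to 43.6 and 51.6. HBN1, FRM2, YKL086W, YKL071W and OYE3, genes of oxidative stress and detoxification or of unknown function, had differences of 3.69 to 3.89, but their levels before treatment were unlike: HBN1 stood at 2297 and 2314 with DMSO in the Med17 strain and at 197 and 83.6 in the Med14 strain. In the Med14 strain OYE3 stood at 226 and 80.4 with DMSO and at 205 and 6.95 with auxin, so its replicates lie further apart than its groups, and without auxin replicate 1 its difference was -0.29. Without that library FRM2 and YKL071W were not called either, at 1.21 and 0.50.

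In the other direction, 2 lipid genes fell in the Med14 strain and were not called in the Med17 strain. OLE1, the fatty acid desaturase gene, went from 2033 and 2395 to 812 and 859 in the Med14 strain and from 900 and 537 to 966 and 886 in the Med17 strain, a difference of -1.78 ± 0.27 (adjusted p = 0.00119, edgeR). ERG3 fell by 1.85 in the Med14 strain and stood at 752 and 561 before and at 559 and 555 after auxin in the Med17 strain, a difference of -1.62. In the Med17 strain the groups of OLE1 overlapped and those of ERG3 lay closer than its DMSO libraries, and the DMSO levels of both genes were higher in the Med14 strain.

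**Figure D4:**
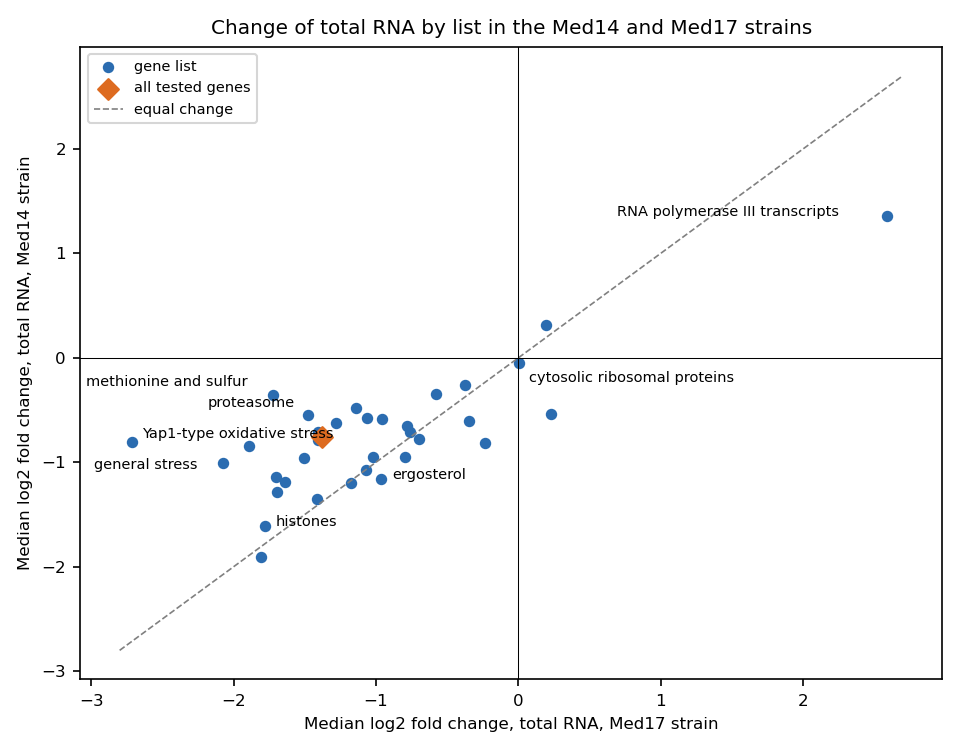
Median log2 fold change (auxin over DMSO) of each gene list in total RNA of the Med14 strain (vertical) against the Med17 strain (horizontal), with all tested genes as a diamond and equal change as a dashed line. Yap1-type, general stress, methionine and proteasome genes lie above the line, and ribosomal protein and histone genes lie near it on the authors' scale, which TMM shifts.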

How the data were processed

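The authors deposited 2 tables, for total and for newly synthesized RNA, with raw counts per gene, a normalized signal and that signal per kilobase of transcript length, plus a log2 fold change, a p-value and an adjusted p-value for comparisons of their own. Per the submitters' processing notes, bcl2fastq 2.17.1.14 separated the reads and sacCer3 was the genome build. The sources used here give neither the read alignment and counting nor the origin of the constants. Per the file values, the deposited normalized signal is the raw count times 1 constant per library.

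From the counts, edgeR 4.0.16 (R 4.3.3) fitted the quasi-likelihood model to all 8 total RNA libraries, 1 term per group, with the authors' constants as scaling and genes filtered by filterByExpr; a joint fit of 16 libraries tested total minus new. The fit was run on simulated data with 200 changed genes and all other genes unchanged. That setting has no general fall, so it does not check the calls made under the fall seen here. A library left alone in its group was assumed to vary like the others. With 2 libraries a group no exact permutation test could pass the threshold, and none was run. Replicates differed beyond counting noise.

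Named genes were drawn from the targets, the deleted marker genes, the 12 lowest and 12 highest calls (mean raw count of at least 50, both pairs moving alike), the 10 most abundant per kb, the extremes and most counted of each list, and the 6 lowest and 6 highest of each difference; RPB2 was named after its values were seen. Members and lists were chosen with earlier results of these data known. Alternatives were TMM and median-of-ratios scaling, other count filters, DESeq2 1.42.0, a replicate block, a fit of the 4 libraries alone and leaving out each library. The authors' deposited table of comparisons was only compared with the fit: for the contrast nearest to Med14, its log2 fold changes differed from these by a median of 0.0252.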

Additional observations from a re-analysis of the deposited data

Results flagged for a closer look

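The effect of auxin on total RNA differed between the Med14 and the Med17 strain by the test of the difference itself (edgeR) for 69 genes with a larger fall or smaller rise in the Med14 strain and for 2322 genes with the opposite. The 6 lowest differences among called genes with enough counts were those of snR31 (-2.33), snR52 (-1.84), OLE1 (-1.78), tG(GCC)P1 (-1.76), ERG3 (-1.62) and snR5 (-1.47). The 6 highest were those of HSP30 (4.02), HBN1 (3.89), FRM2 (3.85), YKL086W (3.74), YKL071W (3.69) and OYE3 (3.69). In the Med17 strain snR31 stood at 841 and 4252 with auxin and snR5 at 850 and 2281, so 1 library carries both values, and neither is called without Med17 auxin replicate 2 (-0.73 and -0.59). The part that library played in the small nucleolar RNAs at large was not tested.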

How the results depend on the processing

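The counts and direction of the general fall depend on scaling. With TMM the Med14 comparison had 1073 lower and 1054 higher genes and a median of -0.061, and with median-of-ratios scaling 927, 1185 and -0.0089. The strain difference had 473 lower and 337 higher with TMM and 581 and 273 with median-of-ratios scaling, and total minus new RNA 214 and 646 or 107 and 726. Several list medians turned from negative to positive, given here with TMM and then with median-of-ratios scaling: cytosolic ribosomal proteins 0.64 and 0.69, Gcn4-type amino acid synthesis 0.087 and 0.14, general factors 0.069 and 0.12, glycolysis 0.35 and 0.40, meiosis 1.30 and 1.35, methionine 0.33 and 0.38, mRNA decay 0.21 and 0.26, respiration 0.11 and 0.16, proteasome 0.14 and 0.19, RNA polymerase I and III subunits 0.033 and 0.086, RNA polymerase II subunits 0.11 and 0.16, and translation factors 0.43 and 0.49. Hexose transport (0.026) and Mediator (0.032) did so with median-of-ratios scaling only. In the same order of scalings the named genes that turned were RGR1 (0.52 and 0.57), SRB4 (0.0027 and 0.055), TDH3 (0.55 and 0.61), FBA1 (0.48 and 0.53), LSR1 (0.66 and 0.72), YLR044C (0.43 and 0.48), XRN1 (0.65 and 0.70), RPN1 (0.61 and 0.66) and YEF3 (0.65 and 0.71), and, with median-of-ratios scaling only, YLR110C (0.051) and SSA2 (0.015). These turns follow from the shift of the median.

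With a mean count of at least 50 there were 47 higher genes, since fewer low-count genes were tested, and the meiosis list median turned to 0.48. DESeq2 gave 3890 lower and 83 higher genes, and the fit of the 4 libraries alone 4224 and 94. Same-numbered libraries were not shown to pair (r = 0.113 between the deviations of replicate 1). With a replicate block there were 4248 lower and 108 higher genes, and total minus new RNA had 5 lower genes. Leaving out 1 library at a time gave 3570 to 4068 lower and 53 to 109 higher genes and medians of -0.80 to -0.69. It gave 41 to 112 lower and 1408 to 2247 higher genes for the strain difference, and 0 to 4 lower and 4004 to 4710 higher for total minus new RNA. Omitting auxin replicate 2 gave the 53 higher genes. The strain difference had 1408 higher genes when Med14 auxin replicate 1 was omitted and 1510 when Med14 DMSO replicate 1 was, and its lower genes numbered 45 without Med17 auxin replicate 2, 112 without Med17 DMSO replicate 1 and 41 without Med17 DMSO replicate 2. Over these omissions the median of cytosolic ribosomal proteins ranged from -0.18 to 0.033, OYE3 from -0.29 to 4.62 in the strain difference and from -0.35 to 4.55 in total minus new RNA, each turning sign without auxin replicate 1. The cause was not tested. Low counts limit the tRNA and sporulation genes, and 2 libraries a group limit every comparison.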
